A study of Homo sapiens with 6 samples.

Results

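The genes described here are the nuclear-encoded subunits of the oxidative phosphorylation complexes in HepG2, a human hepatoma cell line. They were taken by symbol, from transcript clusters of the array that carried exactly 1 gene symbol: the NDUF genes of complex I, the SDH genes of complex II, the UQCR genes with CYC1 and CYCS, the COX5 to COX8 genes of complex IV and the ATP5 genes of complex V. Pseudogenes and assembly factors were left out, and the cluster with the highest mean stood for a gene. This gave 80 genes out of 18372 genes tested, with 34 in complex I, 3 in complex II, 9 in complex III (cytochrome c included), 16 in complex IV and 18 in complex V. NDUFA4 and NDUFA4L2 carry the current RefSeq names COXFA4 and COXFA4L2 and were counted in complex IV. ATP5F1E, NDUFC2, NDUFS5 and UQCRHL were found only in clusters with several symbols and were not tested, and SDHB and UQCRFS1 were not analysed here.

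Gene expression was measured on Affymetrix Human Gene 1.0 ST arrays in 3 samples of leaf-treated HepG2 cells and in 3 samples of untreated HepG2 cells. The leaf-treated cells had received a water extract of the leaves of Barringtonia racemosa at 50 µg/ml for 24 h, and the untreated cells received none. Both groups were the same cell line in the same medium, no genetic change is named, and no vehicle is named for the untreated cells. The labels call the replicates biological, and whether these were separate cultures is not stated, so the p-values below measure only the spread between these 6 samples.

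Oxidative phosphorylation takes place in the inner mitochondrial membrane. Complexes I and II pass electrons from NADH and succinate to coenzyme Q, complex III passes them on to cytochrome c, and complex IV hands them to oxygen. Complexes I, III and IV pump protons across the membrane, and complex V, the ATP synthase, uses the returning protons to make ATP. Most subunits are encoded in the nucleus and imported, while a small core set is encoded by mitochondrial DNA. The 13 mitochondrially encoded subunits had no cluster among those tested. The members are found in nearly every cell type, and several have been linked to the transcription factors NRF1, the ETS factor GABP and YY1.

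Promoter sequences were looked at for the motifs of these factors, which were chosen after the expression values had been seen, and 5 are shown here to put letters beside the values that follow: the members with the smallest p-value in complexes I and III, the only member of complex IV with a lower mean and p under 0.05, and of complex V both ATP5MC1, with the smallest p-value, and ATP5F1C, chosen for its overlapping matches. The motifs were GCGCATGC (the NRF1 core, GCATGCGC on the other strand), CCGGAAG (ETS, CTTCCGG on the other strand) and AAGATGG (YY1, CCATCTT on the other strand). Each line gives RefSeq sequence of GRCh38.p14, 250 bases before to 50 bases after the annotated start, read 5′ to 3′ along the gene, with matches in capitals. The windows were chr9:32573110-32573409 (minus strand) for NDUFB6, chr5:132866392-132866691 (plus) for UQCRQ, chr2:97645812-97646111 (plus) for COX5B, chr17:48892537-48892836 (plus) for ATP5MC1 and chr10:7787927-7788226 (plus) for ATP5F1C.
NDUFB6: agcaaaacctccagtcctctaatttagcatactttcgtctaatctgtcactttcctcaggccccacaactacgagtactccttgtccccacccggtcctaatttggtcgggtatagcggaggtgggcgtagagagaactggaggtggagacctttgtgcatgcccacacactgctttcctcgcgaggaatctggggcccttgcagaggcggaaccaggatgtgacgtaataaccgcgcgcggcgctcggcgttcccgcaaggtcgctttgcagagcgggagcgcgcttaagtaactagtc
UQCRQ: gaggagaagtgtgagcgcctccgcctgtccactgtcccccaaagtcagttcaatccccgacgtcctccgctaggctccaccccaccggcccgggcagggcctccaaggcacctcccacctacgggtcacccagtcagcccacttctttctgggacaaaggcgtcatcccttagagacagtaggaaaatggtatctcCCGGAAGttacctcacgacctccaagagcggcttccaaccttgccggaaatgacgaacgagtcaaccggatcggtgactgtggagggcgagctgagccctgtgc
COX5B: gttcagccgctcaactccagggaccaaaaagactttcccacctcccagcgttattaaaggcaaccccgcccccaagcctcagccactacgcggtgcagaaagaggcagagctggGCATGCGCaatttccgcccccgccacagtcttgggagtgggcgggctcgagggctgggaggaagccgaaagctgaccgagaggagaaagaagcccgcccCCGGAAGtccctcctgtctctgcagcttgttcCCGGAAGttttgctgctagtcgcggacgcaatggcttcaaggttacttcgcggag
ATP5MC1: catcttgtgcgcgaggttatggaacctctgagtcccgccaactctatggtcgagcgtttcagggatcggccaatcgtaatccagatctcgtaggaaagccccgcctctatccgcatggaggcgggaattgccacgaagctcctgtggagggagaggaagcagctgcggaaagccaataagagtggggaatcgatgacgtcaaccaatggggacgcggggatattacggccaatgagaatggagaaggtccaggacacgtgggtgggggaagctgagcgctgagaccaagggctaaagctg
ATP5F1C: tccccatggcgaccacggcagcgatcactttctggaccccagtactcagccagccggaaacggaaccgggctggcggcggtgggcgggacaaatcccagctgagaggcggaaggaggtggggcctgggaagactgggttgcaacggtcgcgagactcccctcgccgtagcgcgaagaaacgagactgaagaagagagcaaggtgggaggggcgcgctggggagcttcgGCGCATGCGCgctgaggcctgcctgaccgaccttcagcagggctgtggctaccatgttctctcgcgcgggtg
No match lay in the windows of NDUFB6 and ATP5MC1. In UQCRQ an ETS match began at -54 from the start. COX5B held the NRF1 core on the other strand at -136 and ETS matches at -37 and -5. In ATP5F1C the NRF1 core was read on both strands, at -22 and -20, and the matches share bases. RefSeq promoters were matched for 68 of the 80 members, 81 promoters in all. The NRF1 core was in 15 of them (18.5%, against 3.05% of all 35116 promoters), ETS in 20 (24.7%, against 10.3%) and YY1 in 18 (22.2%, against 5.84%). At least 1 of these was in 41 member promoters (50.6%), against 17.6% of all promoters and 20.5% of the promoters of protein-coding genes. A match is a string of letters and not a measured binding site.

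The mean expression of most members was slightly lower in leaf-treated cells, and no member passed the test. The log2 fold change (leaf-treated minus untreated) was negative for 63 of the 80 members (78.8%), against 46.8% of all tested clusters. The members had a median of -0.11 and a range of -0.72 to 0.24, and the median over all 19291 tested clusters was 0.01. After Benjamini-Hochberg adjustment over all tested clusters, 0 members had p under 0.05 in limma (smallest adjusted p = 0.38), and over all clusters 1 was called (0.00518%). At an unadjusted p under 0.05, 12 members were lower (15%) and 1 was higher (1.25%), against backgrounds of 5.9% lower and 3.87% higher. None of the 80 combined p under 0.05 with a change of 1.5 fold, the threshold of the series' design, against 0.84% of all clusters. The 3 leaf-treated values lay below all 3 untreated values for 14 members (17.5%, against 7.41%) and above them for 2 members (2.5%, against 6.14%).

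Other brightly measured clusters had the same shift. Among the 5396 tested clusters with a mean log2 level over 5, a limit set after the values had been seen, the median log2 fold change was -0.10, and 15.5% were lower and 3.08% higher at an unadjusted p under 0.05. Of the 64 members above that level, 10 were lower (15.6%) and 0 were higher, with a median of -0.12. The log2 fold change was negative for 53 of these 64 members (82.8%) and for 72.2% of all clusters above that level. Groups did not overlap, with leaf-treated lower, for 13 of these 64 members (20.3%) and for 17.7% of all clusters above that level. The members' shares at p under 0.05 and without overlap were thus near those of clusters of similar signal. The counts above are not a result about oxidative phosphorylation genes as such. The plot of change against level shows the members inside the cloud of all clusters.

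**Figure D1:**
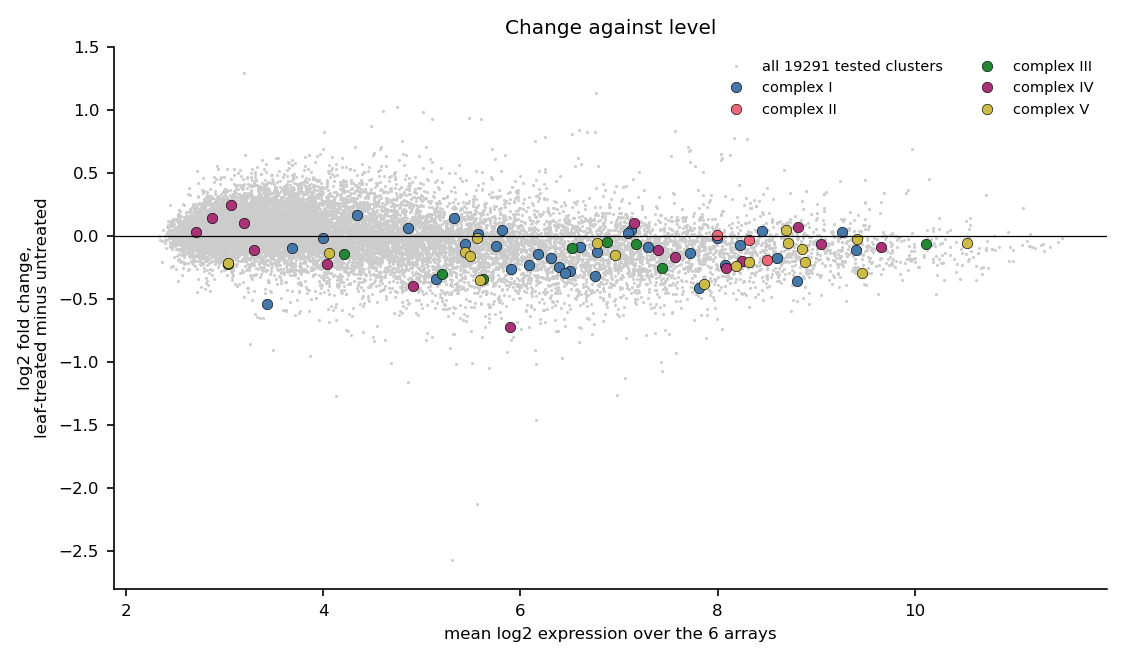
Each grey point is 1 of the 19291 tested clusters and each coloured point 1 of the 80 members, by complex. The x axis is the mean log2 expression over the 6 arrays and the y axis the log2 fold change, leaf-treated minus untreated. Clusters with a mean over 5 have a median of -0.10, and the 64 members there have a median of -0.12.

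The direction also followed the scaling of the arrays. After quantile normalization, which gives all 6 arrays the same distribution, 46 of the 80 members were negative with a median of -0.03, and 6 were lower (7.5%) and 4 higher (5%) at an unadjusted p under 0.05, against 5.38% and 4.57% of all clusters. The members with p under 0.05 were then NDUFB6, NDUFA5, COX5B, NDUFA2, NDUFB9 and NDUFS6, with log2 fold changes of -0.59 to -0.20, and COX8C, COX8A, COX6A1 and NDUFA10, with 0.17 to 0.23. Of the 64 members over level 5, 4 were lower under this scaling (6.25%) and 3 were higher (4.69%). The shares of all clusters over that level were 9.23% lower and 8.77% higher. When each array was centred on its median, 74 members were negative and 15 were lower at p under 0.05, and the median of all clusters itself moved to -0.07. Which of these scalings is nearer to the RNA in the cells was not tested.

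The leaf-treated arrays differed among themselves. Leaf-treated replicate 1 lay below all 3 untreated arrays for 39 members (48.8%), replicate 2 for 22 (27.5%) and replicate 3 for 54 (67.5%), and they lay above them for 13, 22 and 6 members. For all tested clusters the shares below were 30.1%, 22.7% and 32%. For all clusters above the background level (log2 3.28, defined below) they were 38.9%, 22.4% and 41.6%. The median deviation of the members from the untreated mean was -0.08, -0.02 and -0.19 on leaf-treated replicates 1, 2 and 3, against 0.05, -0.03 and -0.01 on the untreated arrays. Leaf-treated replicate 2 thus sat among the untreated arrays and the other two below them. In complex V all 3 leaf-treated medians were below the untreated ones. Clusters over level 5 as a whole gave -0.14, 0.01 and -0.16 on the leaf-treated arrays, against 0.03, -0.03 and -0.01 on the untreated arrays. Without leaf-treated replicate 2, 20 members were lower at an unadjusted p under 0.05 (25%, against 11.7% of all clusters) and 2 were higher, none after adjustment (smallest adjusted p = 0.088 in limma, for NDUFA2). Without leaf-treated replicate 3, 52 members were negative with a median of -0.06, and 6 were lower (7.5%, against 3.8% of all clusters). For the fits without an array, shares among clusters over level 5 are not given, so these comparisons do not match the level of the members.

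**Figure D2:**
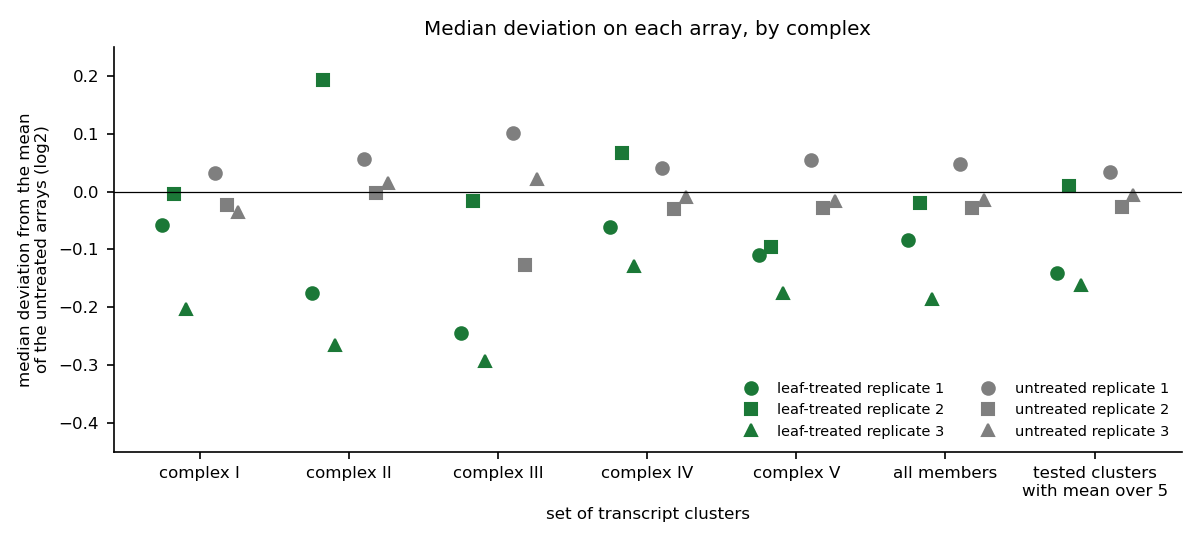
Median deviation (log2) of the members of each complex, of all members and of all tested clusters with a mean over 5, on each array, from the mean of the 3 untreated arrays. Green marks leaf-treated and grey untreated arrays, and the shape gives the replicate number. Leaf-treated replicates 1 and 3 are below zero in every set shown, and replicate 2 is above zero in complexes II and IV and at -0.10 in complex V.

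Hepatocyte genes that mark HepG2 were present in both groups. Of 8 hepatocyte genes, 7 were measured and all were above background, taken as the 95th percentile of 357 olfactory receptor clusters (log2 level 3.28), and their summed linear level was 7040 to 7560 in leaf-treated cells and 7370 to 8190 in untreated cells. Squamous markers summed to 43.6 to 58.4 in leaf-treated and 40.9 to 47.8 in untreated cells (3 of 4 measured markers above background), and fibroblast markers to 56.0 to 68.6 in leaf-treated and 54.5 to 58.6 in untreated cells (4 of 5). Blood cell markers summed to 33.2 to 36.4 in leaf-treated and 31.7 to 35.1 in untreated cells (1 of 4), and endothelial markers to 33.9 to 39.9 in leaf-treated and 34.9 to 37.2 in untreated cells (1 of 4). The part of these markers in the members' values was not tested, and in bulk RNA fewer cells of a type and less RNA per cell cannot be told apart. Pairs of arrays correlated at 0.984 to 0.995. Of the members, 74 were above background, and UQCRB, COX6B2, COX7A1, COX7B2, COX8C and ATP5MGL were not.

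Complex I takes electrons from NADH in a matrix arm, built around iron-sulphur and flavin subunits, and pumps protons in a membrane arm. Of its 34 members, 25 had a negative log2 fold change (73.5%, against 46.8% of all clusters and 72.2% of those over level 5), with a median of -0.10. At an unadjusted p under 0.05, 6 were lower (17.6%, against 5.9% of all clusters and 15.5% of those over level 5) and 0 higher. The median was -0.16 without leaf-treated replicate 2 and -0.01 without leaf-treated replicate 3. The 6 core redox subunits had a median of -0.01. NDUFS1, the large iron-sulphur subunit, was at 9.18, 9.38 and 9.26 in leaf-treated replicates 1 to 3 and at 9.28, 9.18 and 9.27 in untreated replicates 1 to 3 (log2 fold change 0.03, 95% interval -0.15 to 0.22 from limma), and the groups overlapped. NDUFV1, which binds the flavin that accepts electrons from NADH, was at 6.20, 6.72 and 6.01 in leaf-treated and at 6.59, 6.69 and 6.52 in untreated cells (-0.29, interval -0.73 to 0.14), with leaf-treated replicate 2 above all untreated values. NDUFS7, another iron-sulphur subunit, had the highest fold change of the complex, 0.17 (interval -0.07 to 0.40).

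Among the 10 accessory subunits of the matrix arm, 3 were lower at an unadjusted p under 0.05 (30%, against 5.9% of all clusters and 15.5% of those over level 5). NDUFA5 was at 5.06, 4.91 and 4.96 in leaf-treated cells, all below the 5.33, 5.39 and 5.22 of untreated cells. The means were 4.97 ± 0.08 in leaf-treated and 5.31 ± 0.09 in untreated cells (SD, n = 3 each), a log2 fold change of -0.34 (95% interval -0.53 to -0.15), or -21.0% (adjusted p = 0.38 in limma). It was one of the members in which leaf-treated replicate 2 was as low as the others. NDUFA2, a small subunit with a thioredoxin-like fold, was at 6.52, 6.82 and 6.46 in leaf-treated and at 6.94, 6.93 and 6.87 in untreated cells (-0.31, interval -0.57 to -0.06, adjusted p = 0.50). Its groups did not overlap, though leaf-treated replicate 2 was close to the lowest untreated value. NDUFS6, a zinc-binding subunit, was at 7.41, 7.85 and 7.56 in leaf-treated and at 8.10, 8.17 and 7.79 in untreated cells (-0.42, interval -0.77 to -0.06, adjusted p = 0.51), and its groups overlapped. NDUFAB1, the mitochondrial acyl carrier protein, had -0.18 (interval -0.42 to 0.07).

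Of the 18 accessory subunits of the membrane arm, 14 were negative (77.8%, against 72.2% of all clusters over level 5), with a median of -0.13. At an unadjusted p under 0.05, 3 were lower (16.7%, against 5.9% of all clusters and 15.5% of those over level 5). NDUFB6, whose promoter is printed above, was at 3.10, 3.24 and 3.15 in leaf-treated and at 3.92, 3.46 and 3.73 in untreated cells. The mean was 3.16 ± 0.07 in leaf-treated and 3.70 ± 0.23 in untreated cells (SD, n = 3 each). The log2 fold change of -0.54 (interval -0.83 to -0.25, adjusted p = 0.38) came with the smallest p of the 80 members. The leaf-treated values were all below the background level of 3.28 and the untreated values above it, so its change is measured against background on one side. NDUFB9 was at 8.50, 8.80 and 8.57 in leaf-treated and at 9.22, 8.84 and 8.89 in untreated cells (-0.36, adjusted p = 0.51). Its groups did not overlap, with leaf-treated replicate 2 just under untreated replicate 2. NDUFC1 was at 6.28, 6.55 and 6.26 in leaf-treated and at 6.75, 6.59 and 6.58 in untreated cells (-0.28, adjusted p = 0.51), again with a narrow gap at leaf-treated replicate 2. The other members of complex I had log2 fold changes of -0.26 (NDUFA13) to 0.15 (NDUFA7).

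**Figure D3:**
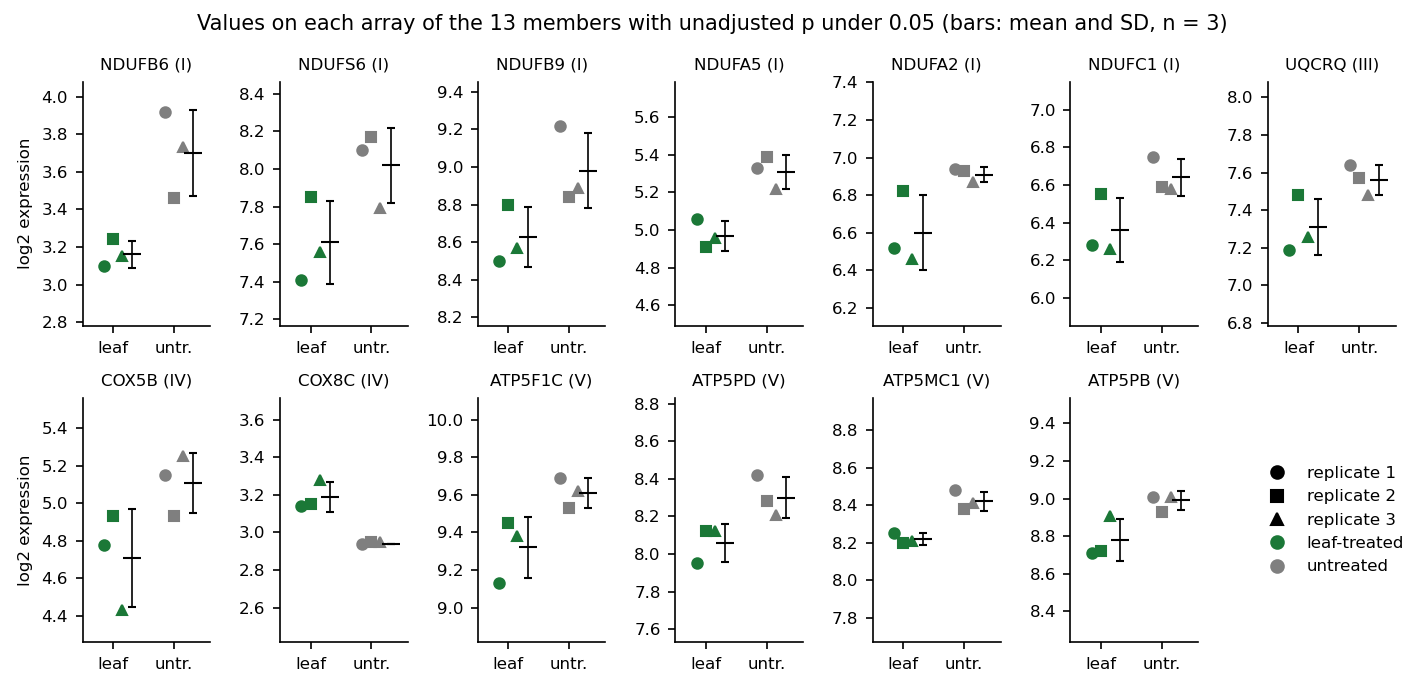
Log2 expression on each array of the 13 members with an unadjusted p under 0.05, 1 panel a gene with its complex in brackets; every y axis spans the same range of log2 units but not the same levels. Green points are leaf-treated and grey points untreated, the shape gives the replicate number, and bars are the mean and SD (n = 3). In 10 of the 13 panels the groups do not overlap; in NDUFS6, UQCRQ and COX5B they do.

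Complex II, succinate dehydrogenase, links the tricarboxylic acid cycle to the chain, and its 3 measured members showed no common direction. SDHA, the flavoprotein that oxidises succinate, was at 8.16, 8.53 and 8.22 in leaf-treated and at 8.32, 8.33 and 8.35 in untreated cells (-0.03, interval -0.29 to 0.22). SDHC and SDHD are the membrane anchors. The log2 fold change of SDHC was 0.01 (interval -0.50 to 0.52) and that of SDHD was -0.19 (interval -0.56 to 0.19). The clusters used for SDHC and SDHD are uncertain, because the clusters numbered next to them on the array belong to another chromosome than the gene, and they may read near-identical copies. The other cluster of SDHC was at 5.65, 4.99 and 5.41 in leaf-treated and at 6.23, 5.65 and 5.50 in untreated cells (-0.44, interval -1.01 to 0.12), and that of SDHD had -0.03. The same holds for the clusters used for NDUFV2 (0.04, other cluster -0.05) and ATP5MK (-0.38, other cluster -0.05), and for the unused cluster of COX6A1.

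All 9 members of complex III with cytochrome c had negative fold changes (100%, against 46.8% of all clusters and 72.2% of those over level 5). The median was -0.14, and 1 had an unadjusted p under 0.05 (11.1%, against 15.5% of clusters over level 5). After quantile normalization UQCR10 (0.07), CYCS (0.05) and UQCRH (0.02) were positive, UQCRC2 was at 0 and the others stayed negative. Without leaf-treated replicate 2 the median was -0.31 and without leaf-treated replicate 1 it was -0.05. UQCRQ, a small subunit near the coenzyme Q site, was at 7.19, 7.48 and 7.26 in leaf-treated and at 7.64, 7.57 and 7.48 in untreated cells (-0.25, interval -0.48 to -0.02, adjusted p = 0.51). Leaf-treated replicate 2 equalled untreated replicate 3 to 2 decimals. CYC1, cytochrome c1, was at 5.19, 5.85 and 5.32 in leaf-treated and at 5.90, 5.70 and 5.77 in untreated cells (-0.34, interval -0.76 to 0.08). Leaf-treated replicate 2 was among the untreated values, and without it the fold change was -0.54 (adjusted p = 0.089). CYCS, the mobile cytochrome c that is also known for its part in apoptosis, was at 7.10, 7.13 and 7.20 in leaf-treated and at 7.32, 6.93 and 7.38 in untreated cells (-0.06, interval -0.37 to 0.24). UQCR11 had -0.30 (interval -0.88 to 0.27) with leaf-treated values from 4.57 to 5.50 and untreated values from 5.11 to 5.51, and UQCRC2, a core subunit, had -0.06 (interval -0.22 to 0.09). The other members had log2 fold changes of -0.22 (UQCRB) to -0.05 (UQCR10).

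Complex IV, cytochrome c oxidase, has subunits that come as isoforms for different tissues. Its 10 widely expressed members had a median of -0.14 and its 6 tissue-restricted members 0.07, a difference that was not tested, and 4 of these 6 were below background. COX5B, a zinc-binding subunit, was at 4.78, 4.93 and 4.43 in leaf-treated and at 5.15, 4.93 and 5.25 in untreated cells (-0.40, interval -0.76 to -0.04, adjusted p = 0.51). Replicate 2 had the same value in both groups. COX8C, an isoform known from testis, was at 3.14, 3.15 and 3.28 in leaf-treated and at 2.94, 2.95 and 2.95 in untreated cells (0.24, interval 0.09 to 0.40, adjusted p = 0.44). It was the only member higher at an unadjusted p under 0.05, and its mean was not above the background level of 3.28. COX7B had the largest fold change of all members, -0.72, with the widest interval, -2.13 to 0.68. Its values of 4.64, 6.03 and 5.92 in leaf-treated and 7.10, 5.10 and 6.57 in untreated cells overlapped.

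The remaining complex IV members gave smaller differences. COX7C had -0.25 (interval -0.58 to 0.07), counted as without overlap although leaf-treated replicate 1 and untreated replicate 2 were equal to 2 decimals, and COX8A was higher without overlap (0.11, interval -0.05 to 0.26). COX5A was at 9.59, 9.77 and 9.48 in leaf-treated and at 9.74, 9.68 and 9.68 in untreated cells (-0.09, interval -0.29 to 0.12). Of the isoform pairs, COX6A1 had 0.07 (interval -0.13 to 0.28) and the muscle form COX6A2 -0.22 (interval -0.73 to 0.28), and COX7A2 had -0.11 (interval -0.42 to 0.20) and the muscle form COX7A1 0.11 (interval -0.07 to 0.28). COXFA4 had -0.17 (interval -0.45 to 0.12) and COXFA4L2, known as a target of hypoxia-inducible factor, -0.11 (interval -0.38 to 0.17). Subunit 4 is not in the set, and its common isoform COX4I1 was at 6.64, 6.64 and 6.54 in leaf-treated and at 6.70, 6.64 and 6.73 in untreated cells (-0.08, interval -0.24 to 0.08), while COX4I2, the isoform linked to low oxygen, was at 3.62, 3.36 and 3.86 in leaf-treated and at 3.29, 3.29 and 3.37 in untreated cells (0.30, interval -0.01 to 0.60). The other members had log2 fold changes of -0.20 (COX6C) to 0.14 (COX6B2).

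In the deposited values of complex V, the ATP synthase, 17 of 18 members were negative (94.4%, against 46.8% of all clusters and 72.2% of those over level 5), with a median of -0.14. At an unadjusted p under 0.05, 4 were lower (22.2%, against 5.9% of all clusters and 15.5% of those over level 5) and 0 higher. The groups did not overlap for 8 members (44.4%, against 7.41% of all clusters), all lower. Of the 16 members with a level over 5, these were 8 (50%), against 17.7% of all clusters above that level. The other scaling gave fewer: after quantile normalization 12 of 18 were negative (median -0.06) and 0 had p under 0.05. The groups then did not overlap for 2 lower members (11.1%, against 9.49% of all clusters and 13% of those over level 5) and 1 higher member. In the catalytic head, the alpha subunit ATP5F1A was at 9.31, 9.51 and 9.38 in leaf-treated and at 9.44, 9.41 and 9.42 in untreated cells (-0.02, interval -0.20 to 0.15). The beta subunit ATP5F1B was at 5.31, 5.44 and 5.39 in leaf-treated and at 5.45, 5.48 and 5.59 in untreated cells (-0.13, interval -0.30 to 0.04), without overlap. The gamma subunit ATP5F1C, the central shaft, was at 9.13, 9.45 and 9.38 in leaf-treated and at 9.69, 9.53 and 9.62 in untreated cells (-0.29, interval -0.53 to -0.05, adjusted p = 0.51). Its groups did not overlap, and ATP5F1D, the delta subunit, had -0.01 (interval -0.20 to 0.17).

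The peripheral stalk, which holds the head still, had the lowest median of the parts of complex V, -0.22. Of its 4 members 3 were lower without overlap (75%, against 7.41% of all clusters and 17.7% of those over level 5). Differences between the parts were not tested. ATP5PB was at 8.71, 8.72 and 8.91 in leaf-treated and at 9.01, 8.93 and 9.01 in untreated cells (-0.20, interval -0.39 to -0.02, adjusted p = 0.51). ATP5PD was at 7.95, 8.12 and 8.12 in leaf-treated and at 8.42, 8.28 and 8.21 in untreated cells (-0.24, adjusted p = 0.51). ATP5PF was at 5.08, 5.67 and 5.51 in leaf-treated and at 5.70, 5.81 and 5.79 in untreated cells (-0.35, interval -0.71 to 0.02). The other member of the stalk, ATP5PO, the subunit that gives oligomycin sensitivity, did not share the direction (0.05, interval -0.15 to 0.25). After quantile normalization the log2 fold change was -0.27 for ATP5PF, -0.13 for ATP5PD, -0.12 for ATP5PB and 0.15 for ATP5PO. None of these members passed the unadjusted threshold under that scaling.

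The c ring turns with the flow of protons, and 3 genes encode the same mature c subunit. ATP5MC1 was at 8.25, 8.20 and 8.21 in leaf-treated and at 8.48, 8.38 and 8.41 in untreated cells. The mean was 8.22 ± 0.03 in leaf-treated and 8.42 ± 0.05 in untreated cells (SD, n = 3 each). The log2 fold change was -0.20 (interval -0.35 to -0.05), or -13.1%, with an adjusted p of 0.48. Both groups had a small spread, and they did not overlap. ATP5MC2 had -0.06 (interval -0.27 to 0.15) and ATP5MC3 -0.13 (interval -0.32 to 0.05). The differences between these 3 genes were not tested. ATP5IF1, the inhibitor of the reverse reaction, was at 5.59, 5.31 and 5.34 in leaf-treated and at 5.76, 5.48 and 5.48 in untreated cells (-0.16, interval -0.44 to 0.12). All 6 small membrane subunits were negative in the deposited values (100%, against 46.8% of all clusters and 72.2% of those over level 5), with a median of -0.13, and 0 had p under 0.05. Of these, ATP5MGL was not above background, and the cluster used for ATP5MK is uncertain. After quantile normalization ATP5ME (0.04) and ATP5MG (0.03) were positive, ATP5MJ was at 0 and the others stayed negative.

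**Figure D4:**
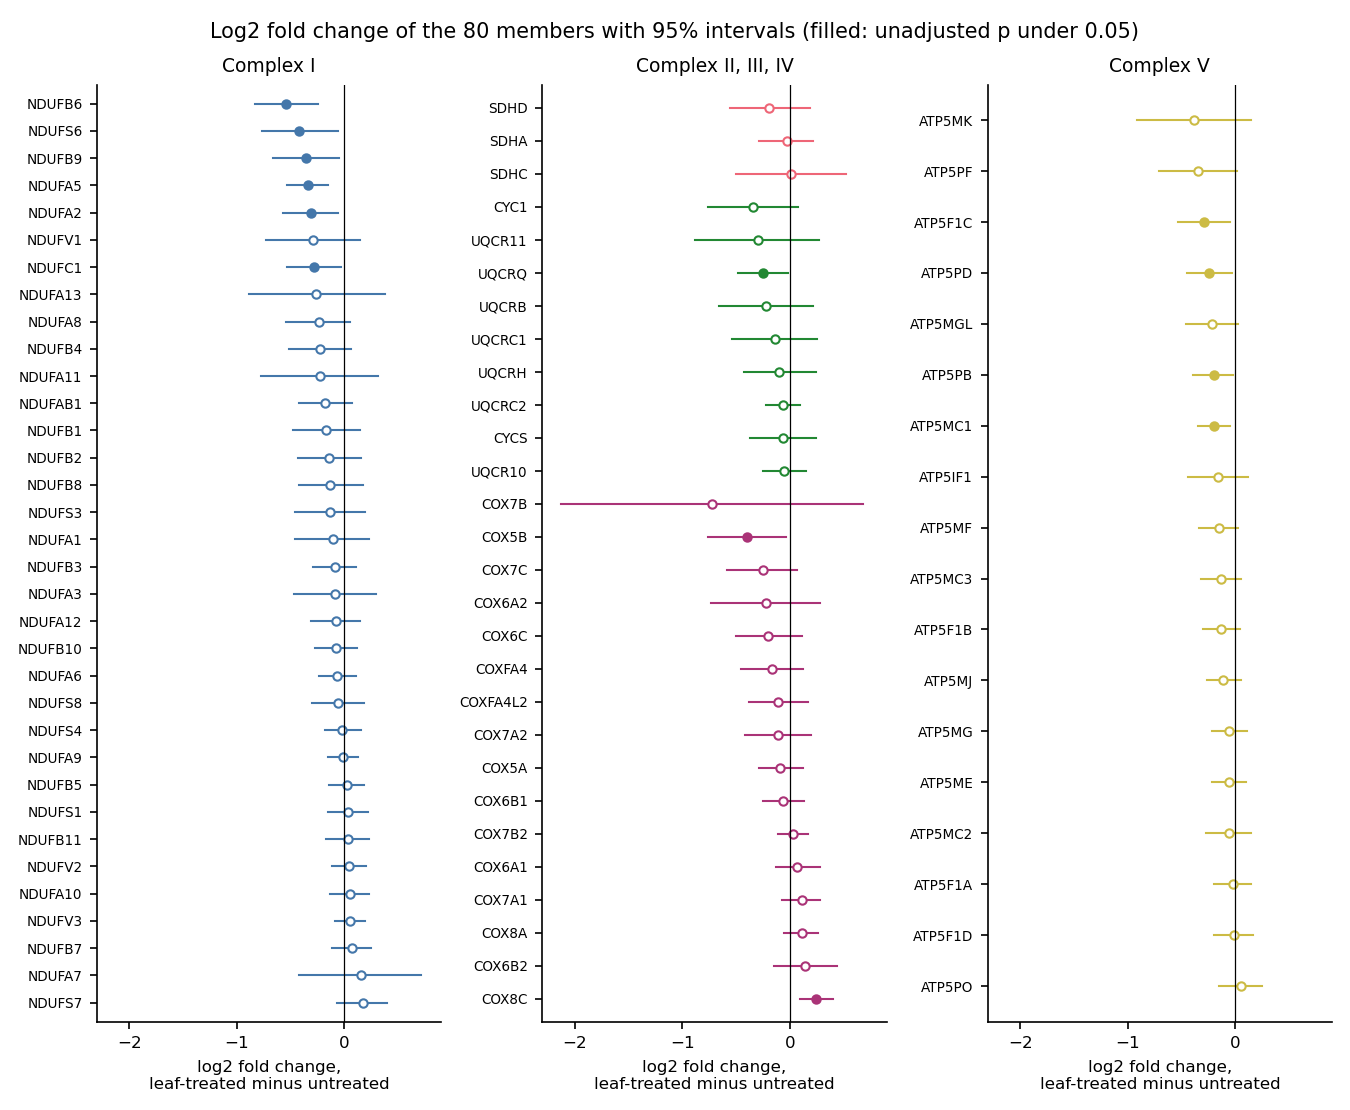
Log2 fold change (leaf-treated minus untreated) of each of the 80 members, with 95% intervals from limma, by complex and ordered by size. Filled points have an unadjusted p under 0.05, and none has an adjusted p under 0.05. COX7B has the widest interval, -2.13 to 0.68.

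Among genes that work with the complexes, none passed the adjustment. Of 52 measured assembly factors (61 listed), 7 were lower (13.5%, against 5.9% of all clusters and 15.5% of those over level 5) and 0 higher at an unadjusted p under 0.05, with a median of -0.14, and 2 of these 7, ACAD9 and COA3, were past 1.5 fold. Of all clusters, 0.84% combined such a p with 1.5 fold, and of the 5396 clusters over level 5, 112 did. COA6, which helps to place copper in complex IV, was at 7.08, 7.04 and 7.16 in leaf-treated and at 7.56, 7.36 and 7.61 in untreated cells (-0.42, adjusted p = 0.38). ACAD9, which serves the assembly of complex I, was at 4.89, 5.44 and 5.10 in leaf-treated and at 5.73, 5.88 and 5.72 in untreated cells (-0.64, adjusted p = 0.38). Both were without overlap, as was UQCC2, an assembly factor of complex III (-0.33, interval -0.55 to -0.11).

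Of 12 regulators of mitochondrial biogenesis, 2 were lower (16.7%, against 15.5% of clusters over level 5) and 0 higher at an unadjusted p under 0.05. TFAM, which packages and transcribes mitochondrial DNA, was at 8.33, 8.50 and 8.17 in leaf-treated and at 8.68, 8.56 and 8.71 in untreated cells (-0.31, adjusted p = 0.49), without overlap. GABPA, the ETS factor whose motif was searched above, was at 6.89, 7.21 and 7.03 in leaf-treated and at 7.52, 7.20 and 7.33 in untreated cells (-0.31, adjusted p = 0.51). The cluster used for GABPA is uncertain, as for SDHC. It is numbered between those of OGDH and MDH2, genes of another chromosome, and may read a near-identical copy. Enzymes of the tricarboxylic acid cycle had 0 of 11 measured genes (13 listed) with p under 0.05, with a median of -0.10. Of 13 genes of coenzyme Q synthesis only COQ3 (7.69%) was lower at an unadjusted p under 0.05 (-0.39, interval -0.76 to -0.01, median of the list -0.01). Of 6 carriers and channels for ATP, ADP and phosphate (7 listed) only VDAC3 (16.7%), a channel of the outer membrane, was lower (-0.46, interval -0.79 to -0.14, median -0.00234). Of 11 genes of uncoupling and alternative electron entry 0 had p under 0.05 (median 0.06). Of 8 hypoxia-linked regulators only BNIP3L (12.5%), a mitophagy receptor, did, and it was higher (0.79, adjusted p = 0.19, median of the list -0.06). Beside these lists, 5.9% of all clusters were lower and 3.87% higher at an unadjusted p under 0.05. Among clusters over level 5 the shares were 15.5% and 3.08%. Lists this short cannot be told apart from these shares by 1 such gene.

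Under the other settings run, NDUFA5 kept an unadjusted p under 0.05 in 17 of 17 and NDUFB6 in 16 of 16, with fold changes of -0.42 to -0.28 and of -0.66 to -0.43. Some of these settings could not change the outcome. Both genes have a single cluster above background, so taking the other cluster, or only members above background, reused the same fit. Testing all rows or averaging the clusters of a gene left their values as they were. The other 11 members lost it under at least 1 setting. The medians by complex moved with the scaling, as the plot of medians by setting shows.

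**Figure D5:**
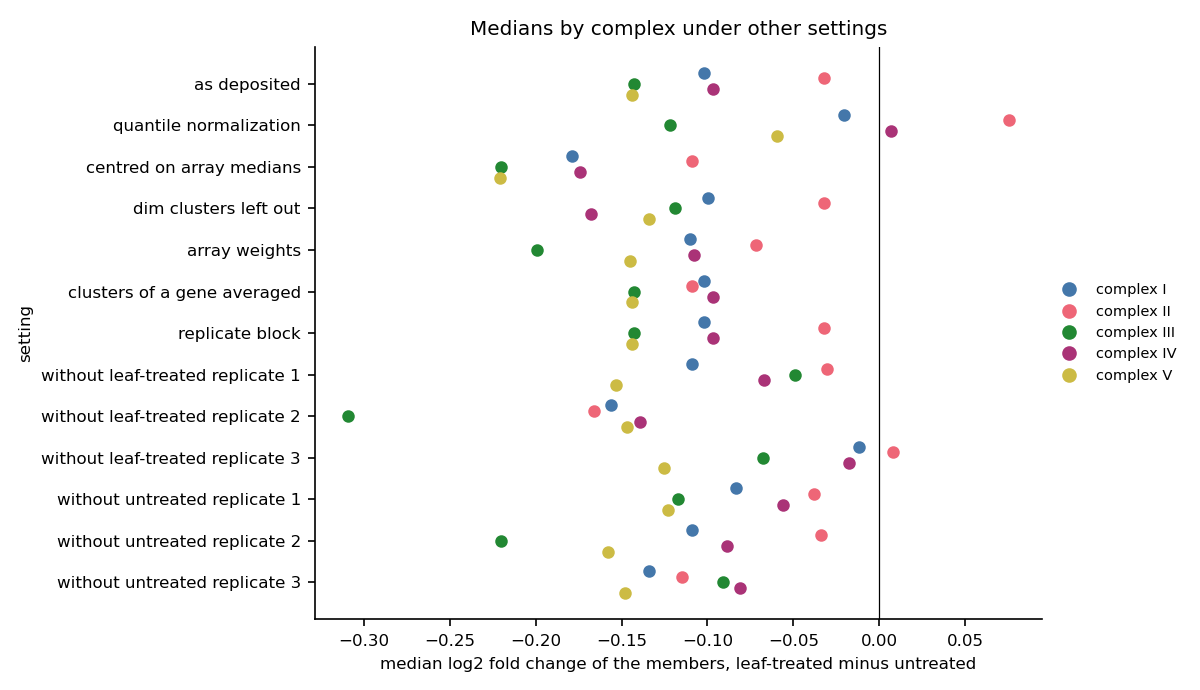
Median log2 fold change (leaf-treated minus untreated) of the members of each complex, as deposited and under 12 other settings. Quantile normalization brings complex I to -0.02, complex IV to 0.01 and complex II to 0.08, and leaving out leaf-treated replicate 2 brings complex III to -0.31.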

How the data were processed

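The log2 values that the authors deposited cover 6 arrays, 3 leaf-treated and 3 untreated, in 33297 rows. GCOS, Partek and RMA are named in the submitters' processing notes, with no version, and the genome build is not given in the sources used here. RMA subtracts background, normalizes arrays and summarises probes on the log2 scale; its options are unknown, and the deposited arrays do not have equal distributions, which can move small differences of bright clusters. With 3 arrays a group, precision is limited.

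Rows at 0 on every array (4468) were left out, as were rows with several symbols (1735) or none (7803). Symbols came from the platform annotation and were updated through RefSeq (GRCh38.p14). Leaf-treated and untreated arrays were compared for each cluster in R 4.3.3 with limma 3.58.1 (lmFit and eBayes, no covariate, two-sided), with Benjamini-Hochberg adjustment over 19291 clusters. Errors are SD or, for fold changes, 95% intervals of the fit. No set test was run, and lists are described by counts and medians.

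Named were members with an unadjusted p under 0.05, the 2 members of each complex with the largest change in either direction, a set of fixed members, and up to 3 genes of each other list with the smallest p. Genes named outside this rule (NDUFS7, NDUFAB1, NDUFA7, NDUFA10, NDUFA13, NDUFV2, UQCRB, UQCR10, UQCRC2, COX6B2, COX6C, COX7C, COX8A, ATP5F1D, ATP5PO and COA3, some of them as the ends of ranges) were chosen after their values were seen. Members and lists were chosen with earlier results of these data known. The fit was tested on simulated data. Alternatives covered normalization, filters, variance models, the cluster of a gene, a replicate block and leaving out each array.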

Additional observations from a re-analysis of the deposited data

How the results depend on the processing

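The smallest adjusted p of the 13 members with an unadjusted p under 0.05 was 0.088 over the 17 other settings run (limma, or ordinary variance analysis for the methods' test). Clusters called in the whole table numbered 1 as deposited, 8 after quantile normalization, 3 after centring on array medians and with array weights, 4 with dim clusters left out, 2 with an intensity trend and robust fit, with all rows tested and with the clusters of a gene averaged, and 0 under the methods' analysis of variance, with a replicate block and without any single array (0 to 0). Members lower at an unadjusted p under 0.05 numbered 12 as deposited, 6 after quantile normalization, 5 under the analysis of variance, 5 with the replicate block, and 3 (without untreated replicate 1) to 20 (without leaf-treated replicate 2) when each array was left out, with 6 without leaf-treated replicate 1 or 3. The share of all clusters that were lower also moved, from 2.91% without untreated replicate 1 to 11.7% without leaf-treated replicate 2. Members higher numbered 1 as deposited, 4 after quantile normalization, 0 after centring, with dim clusters left out and among members above background (a setting chosen after seeing the data), and 1 to 2 when each array was left out. Medians that moved by more than the spread between arrays were, after quantile normalization, 0.00681 for complex IV and -0.0597 for complex V, after centring -0.221 for complex V, and -0.309 for complex III without leaf-treated replicate 2. Leaving out each array gave -0.309 to -0.0489 for complex III, of which that value alone passed the spread. Whether samples with the same replicate number were handled together is not stated. Their deviations from the group means correlated at -0.11, -0.18 and 0.12 over all tested clusters. With 3 arrays a group these correlations cannot decide whether the samples were paired. No member was called after adjustment with or without the replicate block (smallest adjusted p = 0.56 and 0.38 in limma), so adjusted calls could not show its effect. Members lower at an unadjusted p under 0.05 fell from 12 to 5 with it. The cause of these moves was not tested. Signal near background limits NDUFB6 and the 6 members not above it.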
